A study of Mus musculus with 10 samples.

Results

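The collagen, laminin and integrin genes encode the fibres and sheets of the extracellular matrix and the receptors by which cells hold on to them. They were chosen by a rule on gene symbol, with earlier results of these data known. It covers every probe annotated as a collagen chain (Col, a number, a, a number), a laminin chain (Lama, Lamb or Lamc with a number) or an integrin chain (Itga or Itgb). The rule took 108 of the 25697 probes on the array, for 69 of 16593 named genes. Of these, 35 genes were tested, among 9220 genes tested in all, and the other 34 were too dim in every group.

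RNA from 5 kinds of mouse cell was measured on single-colour Illumina BeadChips, with 2 arrays for each kind. The piPS-2F cells are parthenogenetic induced pluripotent cells, made from neural stem cells by overexpressing Oct4 and Klf4. The pESC-B cells are parthenogenetic embryonic stem cells that were sorted for the surface antigen SSEA-1. The fESC are embryonic stem cells from a female, labelled OG2. The pNSC are parthenogenetic neural stem cells, and the fNSC are neural stem cells from a female. Parthenogenetic cells descend from an egg that was activated without sperm. The labels give 1 line per kind, no age or strain, and do not say whether the cultures held feeder fibroblasts or whether the 2 arrays of a kind came from separate cultures. The p-values therefore measure the spread between duplicate arrays, which may be technical.

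Collagens are built from 3 chains wound into a triple helix. The fibrillar collagens (types I, II, III, V and their relatives) assemble into the fibres of connective tissue and are made in quantity by fibroblasts, including the embryonic fibroblasts often used as a feeder layer under pluripotent cells. The basement membrane collagens (types IV, XV and XVIII) instead lie with laminins in the thin sheet on which epithelial and many stem cells sit, where type IV collagen forms a network and each laminin is a trimer of an alpha, a beta and a gamma chain. Integrins are pairs of 1 alpha and 1 beta chain: Itga3, Itga6 and Itga7 give laminin receptors, Itga1 and Itga11 give collagen receptors, and Itga5 and Itgav give receptors for fibronectin, vitronectin and similar ligands. Laminin is a standard coating for cultured neural stem cells, which carry the laminin receptor made of Itga6 and Itgb1.

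Between 9938 and 11837 probes (38.7 to 46.1%) were detected per array, at a detection p-value under 0.01. The mean deposited intensity was 287 to 327 on the 4 piPS-2F and pESC-B arrays and 476 to 625 on the other 6, a difference that quantile normalization removed from the array means and whose part in the results was not tested. Marker genes went with the labels in level, though not always in detection. All 6 pluripotency genes were detected on both arrays of every pluripotent group, and Pou5f1, Nanog and Tdgf1 on no neural array. Esrrb was detected on both pNSC arrays and 1 fNSC array, Dppa5a on both fNSC arrays and Zfp42 on 1 pNSC array, each dimmer than on any pluripotent array. The 4 tested neural stem cell genes were detected on both arrays of pNSC and of fNSC. Nes and Slc1a3 were also detected on both arrays of every pluripotent group, at lower signal, and Olig2 on 1 pESC-B array. Signals below are log2 values after background correction and quantile normalization. A gene was called at an adjusted p under 0.05 (limma, Benjamini-Hochberg over all 9220 genes) and a difference of at least 2-fold. For a gene that both arrays of a group failed to detect, the change is given as "at least N-fold". This bound sets the brighter group's mean against, on each dim array, the lowest signal of any detected probe or the gene's own signal, whichever is higher.

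Of the 35 tested genes, 11 were detected on both arrays of all 5 groups: Col5a1, Col16a1, Col18a1, Col4a1, Lamb2, Lamc1, Itga5, Itga6, Itgav, Itgb1 and Itgb5. At the other end, 6 were detected on both arrays of 1 group only, namely Col17a1 in piPS-2F, Col3a1 in fESC, Lama2 and Itgb8 in pNSC, and Itga1 and Itga9 in fNSC. The numbers detected on both arrays were 24 genes in piPS-2F, 24 in pESC-B, 23 in fESC, 19 in pNSC and 20 in fNSC. Col1a1, Col2a1, Col7a1, Col9a2, Col4a2, Itga11, Itgae, Itgb4 and Itgb7 entered through more than 1 group, but pluripotent groups alone. Col4a5, Col4a6 and Itga7 likewise entered through the neural groups alone. The counts below describe the tested genes and not all 69. A gene that entered through 1 group, or through pluripotent or neural groups alone, was favoured by that filter to stand higher there. This was not strict, since the lowest detected signal differed between arrays. Lama2 read 5.68 and 5.53 in pNSC, where it was detected, and 5.71 on fESC replicate 2, where it was not.

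**Figure D1:**
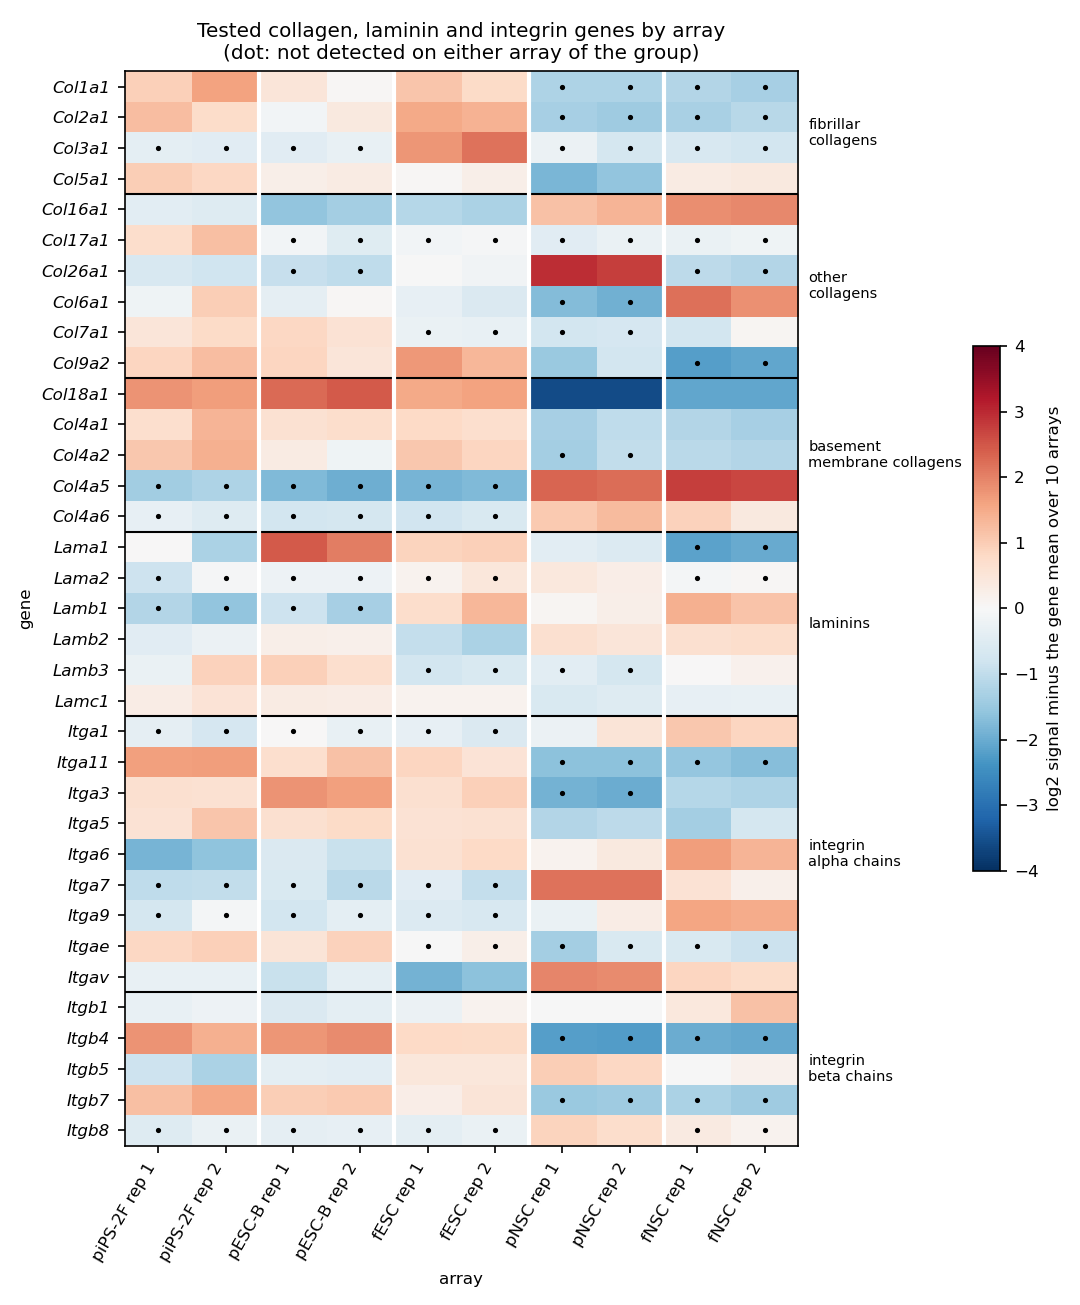
Log2 signal of the 35 tested genes (rows, by class) on the 10 arrays (columns), as the difference from each gene's mean over the arrays (colour, log2 units). Dots mark a group in which the gene was detected on neither array. Rows such as Col18a1, Itgb4 and Itga11 are red on the 6 pluripotent arrays and blue on the 4 neural ones, and rows such as Col4a5 and Itgav are the other way round.

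Across the whole set, 13 of the 35 genes (37.1%) had every pluripotent array above every neural array, beside 28.1% of all 9220 genes. The reverse held for 7 genes (20%), beside 25.9% of all genes, and the arrays overlapped for 15. The 5 tested basement membrane collagens all separated, 3 upward and 2 downward. Among the 6 laminins only Lamc1 lay wholly higher and only Lamb2 wholly lower in the pluripotent arrays.

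Setting piPS-2F against pNSC asks what differs between induced pluripotent cells and neural stem cells when both are parthenogenetic. Values after ± are standard errors of the log2 difference. Here 16 members were called higher (45.7%), beside 27.0% of all genes tested, and 10 lower (28.6%), beside 26.4%. The median log2 difference was 0.89 over the members and 0.03 over all genes. Setting fESC against fNSC asks the same of cells labelled female, and "female pair" below follows that label and sets no contrast of sex. In that pair 14 members were higher (40%), beside 23.9% of all genes, and 9 lower (25.7%), beside 24.8%, with medians of 0.31 and 0.02. The lower shares lie near the background in both pairs.

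Of the 4 tested fibrillar collagens, 3 were called higher in piPS-2F against pNSC (75%), beside 27.0% of all genes, and 0 lower, beside 26.4%. In fESC against fNSC 3 were higher (75%), beside 23.9% of all genes, and 0 lower, beside 24.8%. Only Col1a1 and Col2a1 were called in both pairs, and both had entered through pluripotent groups alone. Col1a1, a chain of type I collagen and the main collagen of fibroblasts, had log2 signals of 6.68 and 7.33 in piPS-2F, 6.20 and 5.77 in pESC-B, 6.83 and 6.49 in fESC, 4.48 and 4.49 in pNSC, and 4.56 and 4.40 in fNSC. All 6 pluripotent arrays thus lay above all 4 neural ones, where the gene was not detected. In piPS-2F, Col1a1 stood at least 2.80-fold above pNSC (adjusted p = 2.5e-06), and in fESC at least 2.45-fold above fNSC (adjusted p = 8.6e-06). Col2a1, the collagen of cartilage, followed the same order, with 7.25 and 6.75 in piPS-2F, 5.91 and 6.41 in pESC-B, 7.53 and 7.42 in fESC, 4.69 and 4.60 in pNSC, and 4.74 and 4.90 in fNSC. In piPS-2F, Col2a1 stood at least 2.79-fold above pNSC (adjusted p = 1.8e-06), and in fESC at least 4.29-fold above fNSC (adjusted p = 7.7e-07). These bounds are for the tested probe. A second, dimmer Col2a1 probe gave log2 differences of 1.04 and 2.49, so in the first pair the size did not hold.

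Col3a1, the type III chain that accompanies type I collagen in soft connective tissue, was detected in fESC alone on its tested probe. Its signals were 6.89 and 7.27 there, against 4.71 and 4.66 in piPS-2F, 4.67 and 4.81 in pESC-B, 4.87 and 4.42 in pNSC, and 4.48 and 4.37 in fNSC. It was at least 3.26-fold higher in fESC than in fNSC (adjusted p = 3.3e-07), while piPS-2F and pNSC were both below detection. A second Col3a1 probe was detected on no array and read 4.72 and 4.56 in fESC. Its log2 difference for fESC against fNSC was 0.11, so the fESC signal of Col3a1 rests on 1 probe. Col5a1, a type V chain that regulates the width of collagen fibres, was detected everywhere and was low only in pNSC. It read 9.91 and 9.76 in piPS-2F, 9.16 and 9.25 in pESC-B, 8.95 and 9.15 in fESC, 7.10 and 7.33 in pNSC, and 9.23 and 9.32 in fNSC. The log2 difference was 2.62 ± 0.14 for piPS-2F against pNSC (adjusted p = 5.6e-08) and -0.22 ± 0.14 for fESC against fNSC (adjusted p = 0.17). The other 7 fibrillar genes on the array were not tested. Col1a2, the partner chain of Col1a1, was detected on no array, as were Col11a1, Col11a2, Col24a1, Col27a1 and Col5a3, and Col5a2 was detected on 1 pNSC array.

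Markers of feeder fibroblasts were mixed beside the fibrillar collagens. Of 15 listed, none of them a collagen, 9 were tested. In piPS-2F against pNSC 4 were called higher (Acta2, Dcn, Mgp and Tagln) and 2 lower (Pdgfra at -4.23 and Prrx1, at least 1.77-fold), and in fESC against fNSC 5 were higher (the same 4 and Thy1) and 2 lower (Pdgfra, at least 1.82-fold, and Twist1 at -1.46). The shares were 44.4% higher and 22.2% lower in the first pair, beside 27.0 and 26.4% of all genes. In the second they were 55.6 and 22.2%, beside 23.9 and 24.8%. The summed linear signal of the 9 markers was 5125 to 6590 in piPS-2F, 2920 to 3026 in pESC-B, 5226 to 5881 in fESC, 1974 to 2122 in pNSC and 759 to 822 in fNSC. Acta2 alone made up 76.2 to 77.8% of the sum in piPS-2F, 69.2 to 69.6% in pESC-B and 80.2 to 81.5% in fESC, against 23.1 to 23.5% in pNSC and 19.1 to 19.7% in fNSC. Without it the sum was 1138 to 1570 in piPS-2F, 898 to 921 in pESC-B and 968 to 1165 in fESC, against 1510 to 1631 in pNSC and 614 to 661 in fNSC, so that piPS-2F and pNSC overlapped. On both arrays of each group, 6 of the 9 were detected in piPS-2F, 6 in pESC-B, 6 in fESC, 5 in pNSC and 6 in fNSC. Tagln, Dcn and Mgp were detected on both arrays of each pluripotent group and on no neural array, S100a4 was detected on neither array of any group but fNSC, and Pdgfra was highest in pNSC. In whole cultures a few cells with much of an RNA and many cells with little cannot be told apart, and the part of fibroblasts in the collagen signals was not tested.

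**Figure D2:**
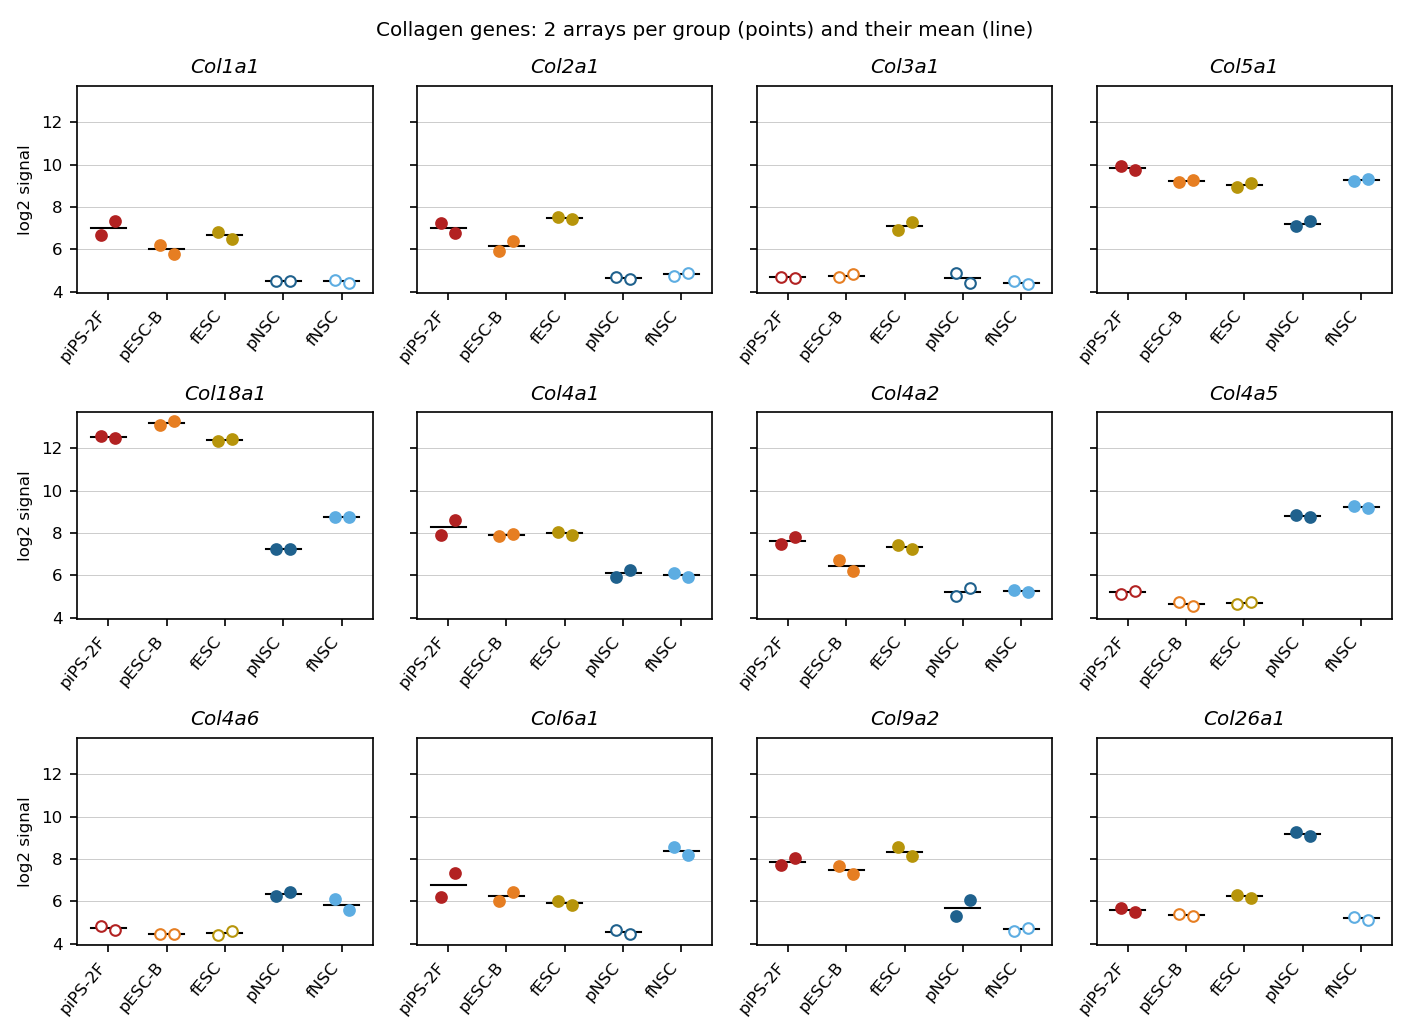
Log2 signal of 12 collagen genes in the 5 groups: each point is 1 array, the line is the mean of 2, and open points mark groups where neither array detected the gene. Col1a1, Col2a1, Col18a1, Col4a1 and Col4a2 sit higher in the 3 pluripotent groups, Col4a5 and Col4a6 higher in the 2 neural groups, while Col3a1 stands apart in fESC and Col26a1 in pNSC, and Col6a1 is high in fNSC and low in pNSC.

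The basement membrane collagens split into chains that were high in pluripotent cells and chains that were high in neural cells. Col18a1, the core of a heparan sulphate proteoglycan whose end fragment is endostatin, read 12.60 and 12.50 in piPS-2F, 13.09 and 13.27 in pESC-B, 12.33 and 12.42 in fESC, 7.24 and 7.24 in pNSC, and 8.74 and 8.76 in fNSC. It had the largest rise of any member in piPS-2F against pNSC, 5.31 ± 0.13 on the log2 scale (adjusted p = 3.1e-10), and rose by 3.63 ± 0.13 in fESC against fNSC (adjusted p = 3e-09). A pair of other Col18a1 probes gave 3.41 and 2.61 in the first comparison and 2.90 and 3.46 in the second, so the direction held on all 3 probes and the size did not.

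The type IV chains are encoded in pairs that lie head to head, each pair with its starts close together. Col4a1 and Col4a2, which make the widespread form of the network, were higher in pluripotent cells. Col4a1 read 7.92 and 8.61 in piPS-2F, 7.87 and 7.97 in pESC-B, 8.06 and 7.92 in fESC, 5.93 and 6.24 in pNSC, and 6.09 and 5.94 in fNSC. Col4a2 read 7.46 and 7.82, 6.71 and 6.21, and 7.45 and 7.25 in the 3 pluripotent groups in that order, and 5.02 to 5.40 on the 4 neural arrays, only 1 of which, in fNSC, detected it. Both were called in both pairs of groups: Col4a1 by 2.18 ± 0.21 in piPS-2F against pNSC (adjusted p = 4.4e-06) and 1.98 ± 0.21 in fESC against fNSC (adjusted p = 1.1e-05), Col4a2 by at least 4.35-fold in the first (adjusted p = 1.5e-06) and by 2.08 ± 0.20 in the second (adjusted p = 5.5e-06).

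Col4a5 and Col4a6, chains of a form with narrower distribution, showed the opposite order. Col4a5 read 5.13 and 5.28 in piPS-2F, 4.73 and 4.56 in pESC-B, 4.65 and 4.74 in fESC, 8.83 and 8.74 in pNSC, and 9.27 and 9.19 in fNSC, and no pluripotent array detected it. It was at least 10.0-fold lower in piPS-2F than in pNSC (adjusted p = 3.9e-09) and at least 9.96-fold lower in fESC than in fNSC (adjusted p = 9.7e-10). Col4a6 was likewise undetected on the 6 pluripotent arrays (4.41 to 4.84) and read 6.23 and 6.45 in pNSC and 6.09 and 5.56 in fNSC. It was at least 1.84-fold lower in piPS-2F than in pNSC (adjusted p = 1.6e-05). The fESC to fNSC difference was also called (adjusted p = 6.9e-05, means 4.49 in fESC and 5.83 in fNSC), but the lowest detected signal on the fESC arrays, 5.85 and 5.98, was too high to give a bound. Col4a3 and Col4a4, the third pair, and Col15a1 were detected on no array.

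In piPS-2F against pNSC and in fESC against fNSC, Col4a1 and Col4a2 were both higher and Col4a5 and Col4a6 both lower. Whether promoter sequence has a part in this was not tested, and the 4 promoters are shown as a description. Each is a RefSeq window of 300 bases on assembly GRCm38.p6, from 250 bases before the gene's start to 50 after it, read 5′ to 3′ on the gene's own strand. The Col4a1 window is chr8:11312777-11313076 on the minus strand and the Col4a2 window is chr8:11312555-11312854 on the plus strand. The starts are 21 bases apart, and capitals mark the 78 bases (chr8:11312777-11312854) that both windows hold, on opposite strands.
Col4a1: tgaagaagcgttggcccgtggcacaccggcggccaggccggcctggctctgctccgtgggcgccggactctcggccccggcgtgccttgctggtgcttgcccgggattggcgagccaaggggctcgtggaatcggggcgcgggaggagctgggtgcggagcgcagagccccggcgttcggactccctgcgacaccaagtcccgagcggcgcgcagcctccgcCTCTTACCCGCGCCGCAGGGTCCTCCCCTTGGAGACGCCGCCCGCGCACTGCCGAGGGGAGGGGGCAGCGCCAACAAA
Col4a2: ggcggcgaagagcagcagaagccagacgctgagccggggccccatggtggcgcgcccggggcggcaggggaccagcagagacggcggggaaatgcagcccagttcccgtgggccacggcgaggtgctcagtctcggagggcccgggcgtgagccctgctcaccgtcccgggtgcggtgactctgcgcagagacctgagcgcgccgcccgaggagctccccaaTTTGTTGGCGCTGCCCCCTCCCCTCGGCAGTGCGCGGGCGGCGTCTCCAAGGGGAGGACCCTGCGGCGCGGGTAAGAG

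The Col4a5 window is chrX:141475169-141475468 on the plus strand and the Col4a6 window is chrX:141474027-141474326 on the minus strand. Their starts are 1343 bases apart, the windows share no base, and capitals mark the GC box.
Col4a5: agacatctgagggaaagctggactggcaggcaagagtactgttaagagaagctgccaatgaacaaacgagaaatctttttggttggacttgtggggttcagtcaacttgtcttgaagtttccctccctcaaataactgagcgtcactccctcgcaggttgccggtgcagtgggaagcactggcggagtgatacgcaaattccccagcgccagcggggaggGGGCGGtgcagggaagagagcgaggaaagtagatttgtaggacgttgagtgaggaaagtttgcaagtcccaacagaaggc
Col4a6: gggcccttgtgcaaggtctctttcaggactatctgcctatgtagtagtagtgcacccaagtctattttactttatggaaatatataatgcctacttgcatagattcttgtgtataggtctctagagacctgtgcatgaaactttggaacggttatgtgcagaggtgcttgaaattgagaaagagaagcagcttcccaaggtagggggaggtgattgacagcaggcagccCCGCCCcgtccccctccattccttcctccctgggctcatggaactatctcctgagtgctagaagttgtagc

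Both strands were searched for the GC box GGGCGG and for the CCAAT box CCAAT. The GC box occurred 1 time in the Col4a1 window, 3 times in that of Col4a2, and 1 time each in those of Col4a5 and Col4a6. The CCAAT box occurred 1 time in each window except that of Col4a6, which had 0. Among all 32851 windows of this length, 35.7% held a GC box and 37.4% a CCAAT box, so such matches are common. The ratio of observed to expected CpG dinucleotides was 0.902 for Col4a1 and 0.818 for Col4a2, 0.561 for Col4a5 and 0.172 for Col4a6, beside a median of 0.384 over all windows. Of the members, 51 had a window, 26 of them tested.

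Of the 6 tested laminin chains, 0 were called higher in piPS-2F against pNSC, beside 27.0% of all genes, and 1 lower (16.7%), beside 26.4%. In fESC against fNSC 1 was higher (16.7%), beside 23.9% of all genes, and 1 lower (16.7%), beside 24.8%. The median log2 differences were -0.46 and 0.02. Lamc1, the gamma chain of most laminins, read 11.01 and 11.27 in piPS-2F, 11.05 and 11.01 in pESC-B, 10.87 and 10.88 in fESC, 10.13 and 10.21 in pNSC, and 10.39 and 10.44 in fNSC. Its pluripotent arrays lay above its neural ones, but the differences of 0.97 ± 0.13 and 0.46 ± 0.13 stayed under 2-fold. Lamb2, a beta chain found in mature basement membranes and at synapses, read 6.55 and 6.23 in fESC, against 8.13 and 8.22 in fNSC, and fell by 1.78 ± 0.15 (adjusted p = 1.8e-06). In piPS-2F it read 7.04 and 7.27, against 8.14 and 7.98 in pNSC, a difference of -0.90 ± 0.15 that was not called.

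Lama1, the alpha chain of the laminin of the early embryo, varied from line to line. It read 6.75 and 5.48 in piPS-2F, 9.20 and 8.78 in pESC-B, 7.61 and 7.70 in fESC, 6.31 and 6.20 in pNSC, and 4.60 and 4.72 in fNSC. It was at least 4.86-fold higher in fESC than in fNSC (adjusted p = 1.2e-05), and piPS-2F and pNSC overlapped (-0.14 ± 0.33, adjusted p = 0.71). Lamb1, the beta chain of that same laminin, was undetected in piPS-2F (4.97 and 4.58) and pESC-B (5.31 and 4.82) and detected in fESC (6.85 and 7.47), pNSC (6.22 and 6.38) and fNSC (7.55 and 7.30). It was at least 1.79-fold lower in piPS-2F than in pNSC (adjusted p = 0.00018). Lama2, the alpha chain of muscle and Schwann cell laminin, was detected on both arrays of pNSC alone (5.68 and 5.53) and was called in neither pair. Lamb3, an epithelial chain, was detected on both arrays of pESC-B and fNSC and on 1 of piPS-2F, and was called in neither pair. Lama4 and Lamc3 were detected on no array.

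Laminin and type IV collagen genes are also made by extraembryonic endoderm, and 3 of 7 markers of that tissue were tested. Gata6 and Sox7 were detected on both arrays of every pluripotent group and on no neural array, and Dab2 on all 10. The summed linear signal was 234 to 265 in piPS-2F, 355 to 359 in pESC-B, 225 to 276 in fESC, 613 to 657 in pNSC and 390 to 471 in fNSC. Dab2 alone made up 91.1 to 91.6% of the sum in pNSC and 88.4 to 90.1% in fNSC. Without Dab2 the sum was 110 to 152 in piPS-2F, 201 to 224 in pESC-B and 142 to 199 in fESC. In the neural groups it was then 54.7 to 55.5 in pNSC and 45.1 to 46.8 in fNSC, so the order was reversed. Within the list, pESC-B was highest of the pluripotent groups for Sox7 (mean 7.29, against 6.14 in piPS-2F and 6.42 in fESC) and Dab2 (7.17, against 6.89 and 6.32) and lowest for Gata6 (5.78, against 5.88 and 6.37). Of the endothelial markers, Pecam1 and Tek were detected on all 6 pluripotent arrays, with sums of 638 to 655 in piPS-2F, 392 to 494 in pESC-B and 395 to 465 in fESC, and on no neural array. The part of these cell types in the results was not tested.

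**Figure D3:**
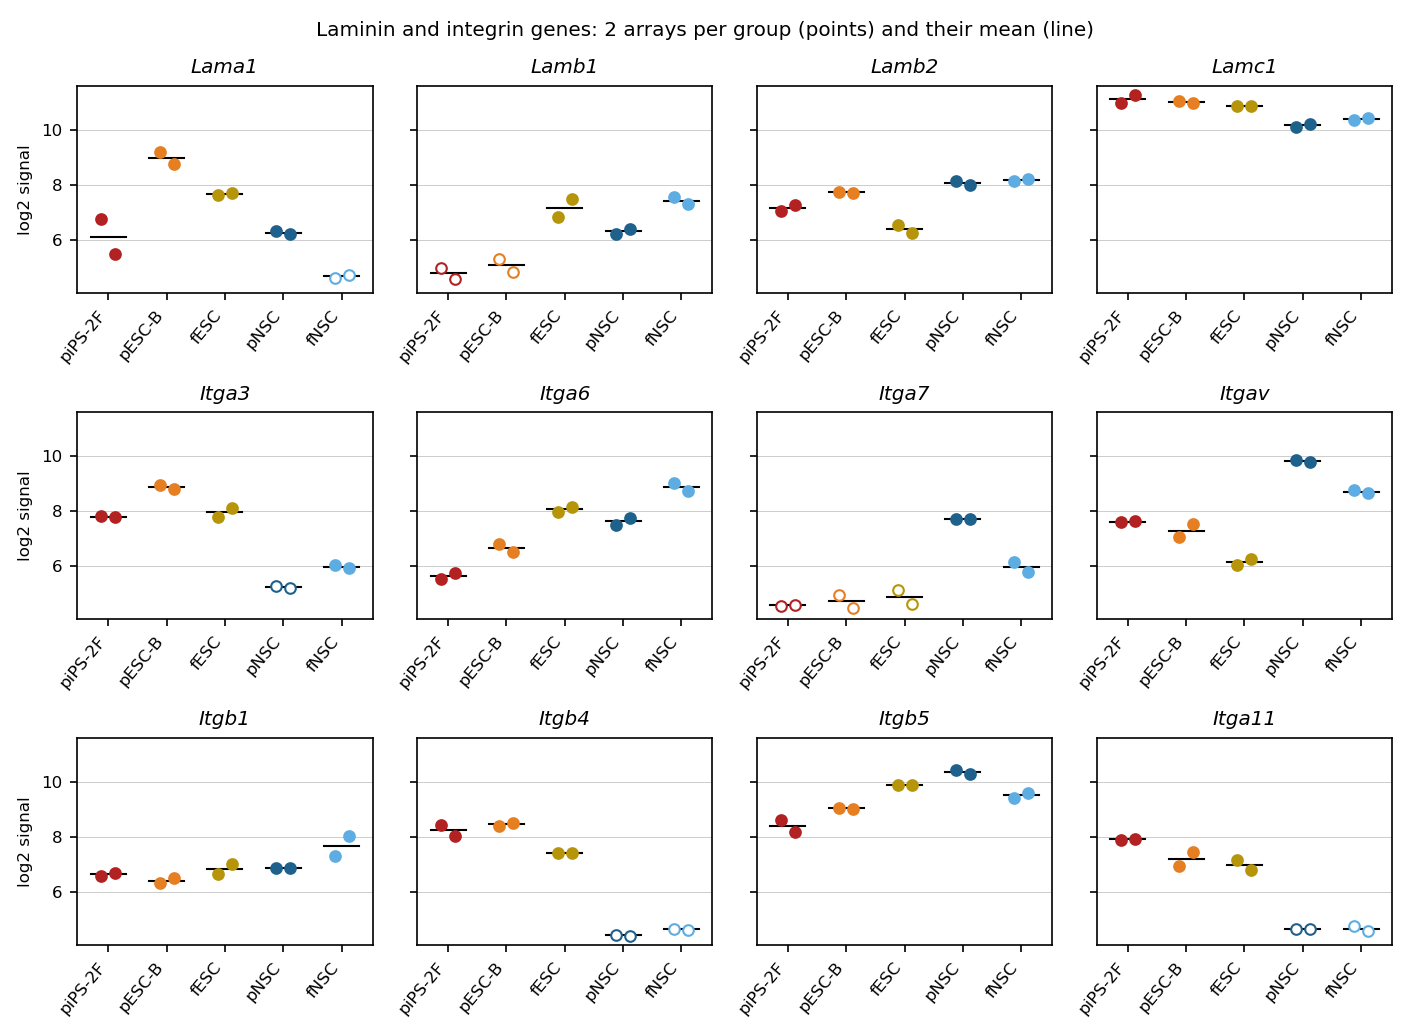
Log2 signal of 12 laminin and integrin genes in the 5 groups: each point is 1 array, the line is the mean of 2, and open points mark groups where neither array detected the gene. Itgb4, Itga3 and Itga11 are higher in the 3 pluripotent groups, Itga7 and Itgav in the 2 neural groups, and Lama1, Lamb1 and Itga6 vary from line to line.

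Integrin alpha chains changed receptor by receptor. In piPS-2F against pNSC 4 of 9 were higher (44.4%) and 3 lower (33.3%), beside 27.0 and 26.4% of all genes. In fESC against fNSC 3 were higher (33.3%) and 4 lower (44.4%), beside 23.9 and 24.8%. Itga11, a receptor for fibrillar collagen, read 7.90 and 7.94 in piPS-2F, 6.94 and 7.44 in pESC-B and 7.15 and 6.81 in fESC, and 4.58 to 4.73 on the neural arrays, none of which detected it. In piPS-2F, Itga11 stood at least 5.29-fold above pNSC (adjusted p = 6.6e-08), and in fESC at least 3.04-fold above fNSC (adjusted p = 9.6e-07). These bounds are for the tested probe. Another Itga11 probe, detected on 1 piPS-2F array only, gave log2 differences of 1.09 and 0.04. A further probe, detected on no array, gave 0.12 and 0.02, so the fESC signal of Itga11 rests on 1 probe. Itga3, a receptor for epithelial laminins, read 7.81 and 7.76 in piPS-2F, 8.94 and 8.79 in pESC-B and 7.79 and 8.10 in fESC, against 5.25 and 5.18 in pNSC and 6.01 and 5.91 in fNSC. The rise was at least 4.80-fold in piPS-2F against pNSC (adjusted p = 6.5e-08) and 1.98 ± 0.14 on the log2 scale in fESC against fNSC (adjusted p = 4.7e-07). Itga5, the alpha chain of the main fibronectin receptor, rose by 1.94 ± 0.23 (adjusted p = 2e-05) and 1.63 ± 0.23 (adjusted p = 8e-05) in the same comparisons, where a second, dimmer probe gave 0.60 and 0.97.

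Other alpha chains were lower in pluripotent cells. Itgav, the vitronectin receptor chain, read 7.60 and 7.62 in piPS-2F, 7.03 and 7.51 in pESC-B, 6.02 and 6.25 in fESC, 9.85 and 9.79 in pNSC, and 8.77 and 8.64 in fNSC, so every pluripotent array lay below every neural one. The differences were -2.21 ± 0.17 for piPS-2F against pNSC (adjusted p = 7.5e-07) and -2.57 ± 0.17 for fESC against fNSC (adjusted p = 2.5e-07). Itga7, a laminin receptor best known in muscle, was detected on no pluripotent array (4.46 to 5.11) and read 7.71 and 7.71 in pNSC and 6.13 and 5.76 in fNSC. It was at least 4.75-fold lower in piPS-2F than in pNSC (adjusted p = 2.8e-07). The fESC to fNSC fall of Itga7, at least 1.02-fold (adjusted p = 0.00083), was no longer called without fESC replicate 2 (-0.84, adjusted p = 0.0089) or fNSC replicate 1 (-0.91, adjusted p = 0.012). Itga6, the laminin receptor chain of many stem cells, read 5.52 and 5.75 in piPS-2F, 6.79 and 6.48 in pESC-B, 7.96 and 8.15 in fESC, 7.50 and 7.75 in pNSC, and 9.02 and 8.71 in fNSC. It fell by 2.00 ± 0.18 in piPS-2F against pNSC (adjusted p = 2.1e-06), and the difference of -0.81 ± 0.18 in fESC against fNSC was under 2-fold.

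Itga1 and Itga9, receptors for collagen and for tenascin and related ligands, were detected on both arrays of fNSC alone. Itga9 read 6.78 and 6.69 there and 4.48 to 5.50 on the other arrays, and Itga1 read 6.21 and 6.01 in fNSC and 4.47 to 5.67 elsewhere. In fESC against fNSC, Itga9 was at least 1.76-fold lower (adjusted p = 1.2e-05) and Itga1 at least 1.15-fold lower (adjusted p = 3e-04). Itgae, which pairs with Itgb7 on lymphocytes within epithelia, was detected on both arrays of piPS-2F (6.53 and 6.64) and pESC-B (6.21 and 6.62) only. On the fESC arrays it read 5.69 and 5.94, where the lowest detected signals were 5.85 and 5.98. In piPS-2F, Itgae stood at least 2.09-fold above pNSC (adjusted p = 3.9e-05). A second Itgae probe gave a log2 difference of 2.03 and was also detected on 1 fESC array. The remaining Itgae probes gave -0.42 to 0.05 and were detected in neither piPS-2F nor pNSC. The partner of Itgae, Itgb7, was detected on all 6 pluripotent arrays (6.07 to 7.36) and no neural one (4.33 to 4.54). Of 2 tested leukocyte markers, Aif1 was detected in piPS-2F alone (5.55 and 5.64) and Cd14 in the neural groups alone. Itga2, Itga4, Itgad, Itgam and Itgax were detected on no array, and Itga2b on 1 fNSC array.

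Of the 5 tested beta chains, 2 were higher (40%) and 2 lower (40%) in piPS-2F against pNSC, beside 27.0 and 26.4% of all genes. In fESC against fNSC 2 were higher (40%), beside 23.9%, and 0 lower, beside 24.8%. Itgb4, the partner of Itga6 in hemidesmosomes, read 8.43 and 8.05 in piPS-2F, 8.40 and 8.53 in pESC-B and 7.43 and 7.40 in fESC, and 4.39 to 4.66 on the neural arrays, where it was not detected. In piPS-2F, Itgb4 stood at least 6.58-fold above pNSC (adjusted p = 5.4e-09), and in fESC at least 4.11-fold above fNSC (adjusted p = 5.2e-08), while a dimmer second probe gave log2 differences of 1.27 and 1.46. In piPS-2F, Itgb7 stood at least 3.16-fold above pNSC (adjusted p = 7.3e-08), and in fESC at least 1.76-fold above fNSC (adjusted p = 3.2e-06). Itgb5, a partner of Itgav, read 8.62 and 8.18 in piPS-2F, 9.06 and 9.03 in pESC-B, 9.90 and 9.90 in fESC, 10.43 and 10.29 in pNSC, and 9.43 and 9.62 in fNSC. Its difference was -1.96 ± 0.16 in piPS-2F against pNSC (adjusted p = 1.3e-06) and 0.37 ± 0.16 in fESC against fNSC (adjusted p = 0.056). Itgb8, another partner of Itgav and one with a known role in the developing brain, was detected on both arrays of pNSC alone (5.79 and 5.61) and was at least 1.18-fold lower in piPS-2F (adjusted p = 2.5e-05).

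Itgb1, the partner of most alpha chains, was detected on all 10 arrays and called in no comparison. It read 6.58 and 6.69 in piPS-2F, 6.31 and 6.50 in pESC-B, 6.64 and 7.01 in fESC, 6.87 and 6.86 in pNSC, and 7.31 and 8.05 in fNSC. The largest difference, -0.85 ± 0.22 in fESC against fNSC (adjusted p = 0.0056), was under 2-fold. Its 2 probes disagreed: the tested one gave -0.23 in piPS-2F against pNSC, the other -1.94. Itgb2, Itgb2l and Itgb6 were detected on no array, and Itgb3 on 1 piPS-2F array.

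The 6 remaining tested collagens, apart from Col26a1, are of the transmembrane, beaded, anchoring and fibril-associated kinds. In piPS-2F against pNSC 4 of the 6 were higher (66.7%) and 2 lower (33.3%), beside 27.0 and 26.4% of all genes. In fESC against fNSC 2 were higher (33.3%) and 2 lower (33.3%), beside 23.9 and 24.8%. Col16a1, a fibril-associated collagen, read 7.51 and 7.42 in piPS-2F, 6.38 and 6.60 in pESC-B, 6.79 and 6.68 in fESC, 9.12 and 9.29 in pNSC, and 9.81 and 9.88 in fNSC. It fell by 1.74 ± 0.14 in piPS-2F against pNSC (adjusted p = 9.4e-07) and fell by 3.11 ± 0.14 in fESC against fNSC (adjusted p = 1.4e-08). Col9a2, a chain of a collagen that decorates cartilage fibres, read 7.69 and 8.06 in piPS-2F, 7.68 and 7.29 in pESC-B, 8.55 and 8.13 in fESC, 5.32 and 6.08 in pNSC, and 4.61 and 4.75 in fNSC. It rose by 2.17 ± 0.26 in piPS-2F against pNSC (adjusted p = 2.1e-05) and was at least 7.83-fold higher in fESC than in fNSC (adjusted p = 4.1e-07).

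Col6a1, a chain of the beaded filaments around cells, changed in opposite directions in the 2 pairs. It read 6.20 and 7.36 in piPS-2F, 6.03 and 6.43 in pESC-B, 6.03 and 5.81 in fESC, 4.63 and 4.45 in pNSC, and 8.59 and 8.21 in fNSC. The gene stood at least 2.39-fold above pNSC in piPS-2F (adjusted p = 8e-05) and fell by 2.48 ± 0.32 in fESC against fNSC (adjusted p = 4.1e-05). Its second probe gave 2.07 and -2.02. Col26a1, a little-studied secreted collagen first found in testis and ovary, was opposite in another way: it read 5.68 and 5.51 in piPS-2F, 5.40 and 5.29 in pESC-B, 6.29 and 6.16 in fESC, 9.26 and 9.08 in pNSC, and 5.26 and 5.12 in fNSC. The 2 pNSC arrays stood above the other 8. It fell by 3.58 ± 0.14 in piPS-2F against pNSC (adjusted p = 5.4e-09) and was at least 1.81-fold higher in fESC than in fNSC (adjusted p = 5.7e-05). The call in fESC against fNSC was lost without fESC replicate 1 (0.97, adjusted p = 0.00084) or fNSC replicate 2 (0.97, adjusted p = 9e-04). Col7a1, the collagen of anchoring fibrils in skin, and Col17a1, the transmembrane collagen of hemidesmosomes, were at least 2.04-fold (adjusted p = 0.00043) and at least 1.30-fold (adjusted p = 9.1e-05) higher in piPS-2F than in pNSC, and neither was called in fESC against fNSC. A pair of other Col17a1 probes, each detected on 1 piPS-2F array, gave log2 differences of 0.78 and 0.97 in piPS-2F against pNSC. The other 12 genes of this class were not tested: Col25a1 was detected on 1 piPS-2F and 1 fESC array and Col9a1 on 1 pNSC array, and Col10a1, Col13a1, Col14a1, Col19a1, Col23a1, Col28a1, Col6a2, Col6a6, Col8a2 and Col9a3 on no array.

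Whether the difference between pluripotent and neural cells was of the same size in both pairs was tested directly. The quantity was the piPS-2F minus pNSC difference less the fESC minus fNSC difference. It was called for 20 members: 11 were higher (31.4%), beside 14.4% of all genes, and 9 lower (25.7%), beside 14.3%. The pairs share no array. The largest were Col6a1 at 4.72 ± 0.45 (adjusted p = 3.7e-05), Col26a1 at -4.61 ± 0.20 (adjusted p = 6.4e-07), Lama1 at -3.14 ± 0.46 (adjusted p = 0.00045), Col5a1 at 2.85 ± 0.20 (adjusted p = 6.8e-06) and Col3a1 at -2.62 ± 0.26 (adjusted p = 4.6e-05). The same quantity is the piPS-2F minus fESC difference less the pNSC minus fNSC difference: these were 0.86 and -3.86 for Col6a1, -0.63 and 3.98 for Col26a1, and 0.79 and -2.06 for Col5a1. For Col1a1, Col2a1, Col4a1, Col4a2, Col4a6, Itga5 and Itgav the test was not called, with adjusted p between 0.24 and 0.6 and differences between -0.30 and 0.36.

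**Figure D4:**
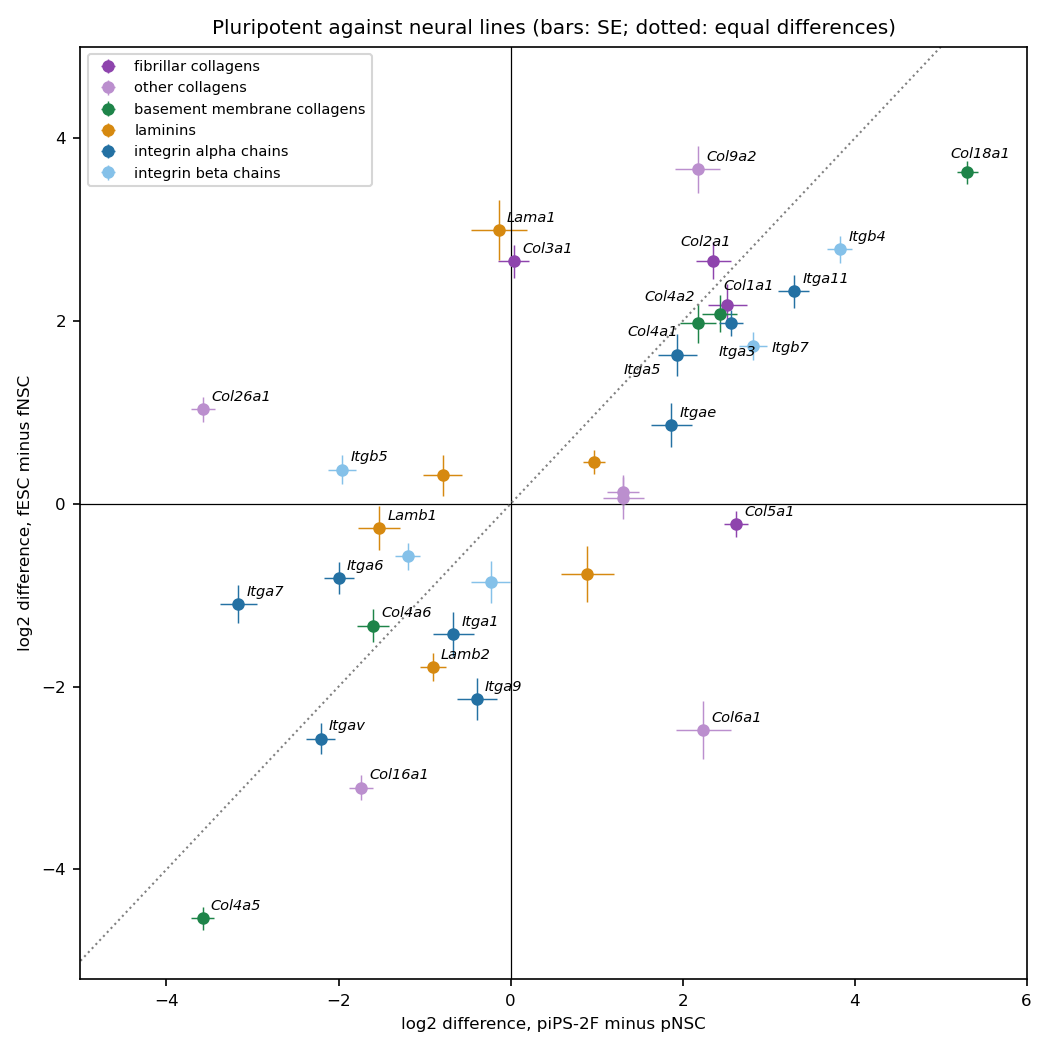
Log2 difference of the 35 tested genes in piPS-2F minus pNSC (horizontal axis) and fESC minus fNSC (vertical axis), with bars for the standard error and colours for the class. Points near the dotted line of equal differences include Col1a1, Col2a1, Col4a1 and Col4a2; Col26a1 and Col6a1 lie in the quadrants of opposite sign.

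Among the pluripotent lines the members differed less. In piPS-2F against pESC-B, both parthenogenetic, 3 members were higher (8.57%), beside 4.50% of all genes, and 3 lower (8.57%), beside 4.95%. Col17a1 read 5.66 and 6.14 in piPS-2F, against 4.85 and 4.46 in pESC-B, a rise of at least 1.30-fold (adjusted p = 0.00088). The other Col17a1 probes gave log2 differences of 0.73 and 0.88. Col4a2 was higher by 1.18 ± 0.20 (adjusted p = 0.0019) and Col1a1 by 1.02 ± 0.23 (adjusted p = 0.0076). Both calls were lost without piPS-2F replicate 2 (Col4a2 1.00, adjusted p = 0.016; Col1a1 0.69, adjusted p = 0.049) or pESC-B replicate 2 (Col4a2 0.93, adjusted p = 0.016; Col1a1 0.80, adjusted p = 0.057). Of the 9 feeder fibroblast markers, 2 (22.2%) were also called higher in piPS-2F than pESC-B, beside 4.50% of all genes, and 0 lower, beside 4.95%. The 2 were Acta2 (1.12 ± 0.15, adjusted p = 0.00039) and Dcn (1.18 ± 0.27, adjusted p = 0.0086). The sum over all 9 markers was 5125 to 6590 in piPS-2F against 2920 to 3026 in pESC-B, most of it Acta2. The other 7 markers were not called, among them Mgp (0.66), Tagln (0.20), Prrx1 (-0.16) and Twist1 (-0.39).

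The 3 genes lower in piPS-2F than in pESC-B were a laminin chain and a pair of laminin receptor chains. Lama1 differed by -2.87 ± 0.33 (adjusted p = 0.00016), Itga3 by -1.08 ± 0.14 (adjusted p = 0.00037) and Itga6 by -1.01 ± 0.18 (adjusted p = 0.002). In each of these genes the piPS-2F arrays lay below the pESC-B arrays. The Itga6 call was lost without piPS-2F replicate 1 (-0.89, adjusted p = 0.015) or pESC-B replicate 1 (-0.85, adjusted p = 0.017).

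Against fESC, piPS-2F had 3 members higher (8.57%), beside 11.5% of all genes, and 5 lower (14.3%), beside 12.2%, shares close to the background. The lower ones had log2 differences of -2.42 ± 0.18 for Itga6 (adjusted p = 2.7e-06), -1.50 ± 0.16 for Itgb5 (adjusted p = 3.5e-05) and -1.54 ± 0.33 for Lama1 (adjusted p = 0.0025). Col3a1 and Lamb1, undetected in piPS-2F, were at least 3.06-fold (adjusted p = 3.6e-06) and at least 3.24-fold (adjusted p = 2.3e-05) lower. Itgav was higher by 1.47 ± 0.17 (adjusted p = 5.6e-05). Col17a1 and Lamb3 were also called higher (adjusted p = 0.001 and 0.017), with means of 5.90 and 5.82 in piPS-2F against 4.87 and 4.81 in fESC, but without a bound, since the lowest detected signal on the fESC arrays was as high. The other Col17a1 probes gave 0.84 and 0.07, the latter on a probe that 1 fESC array detected. Without piPS-2F replicate 2 the calls of Lama1 (-0.90, adjusted p = 0.0045), Col17a1 (0.79, adjusted p = 0.0083) and Lamb3 (0.42, adjusted p = 0.097) were lost, and those of Col17a1 (1.00, adjusted p = 0.0078) and Lamb3 (0.95, adjusted p = 0.071) also without fESC replicate 1.

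Against fESC, pESC-B had 5 members higher (14.3%), beside 14.2% of all genes, and 4 lower (11.4%), beside 12.8%, again close to the background. Of these 9, 4 were laminin chains: Lama1 (1.33 ± 0.33, adjusted p = 0.0052) and Lamb2 (1.34 ± 0.15, adjusted p = 4.2e-05) were higher, Lamb3 was at least 1.31-fold higher (adjusted p = 0.0018), and Lamb1 was at least 3.10-fold lower (adjusted p = 4.6e-05). Col3a1 was at least 2.94-fold lower (adjusted p = 3.8e-06), and the log2 differences of Col2a1 and Itga6 were -1.32 ± 0.20 (adjusted p = 0.00031) and -1.42 ± 0.18 (adjusted p = 7.5e-05). Itgav (1.13 ± 0.17, adjusted p = 0.00026) and Itgb4 (1.05 ± 0.15, adjusted p = 0.00018) were higher, but both calls were lost without pESC-B replicate 2 (0.89, adjusted p = 0.0019, and 0.98, adjusted p = 0.002), and a second Itgb4 probe gave -0.20. The 3 comparisons among pluripotent lines share arrays, so their calls are not separate. Itga6 had no overlap between any 2 of the 3 lines, in the order piPS-2F, pESC-B, fESC from low to high. Lama1 and Itga6 alone were called in all 3 comparisons.

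**Figure D5:**
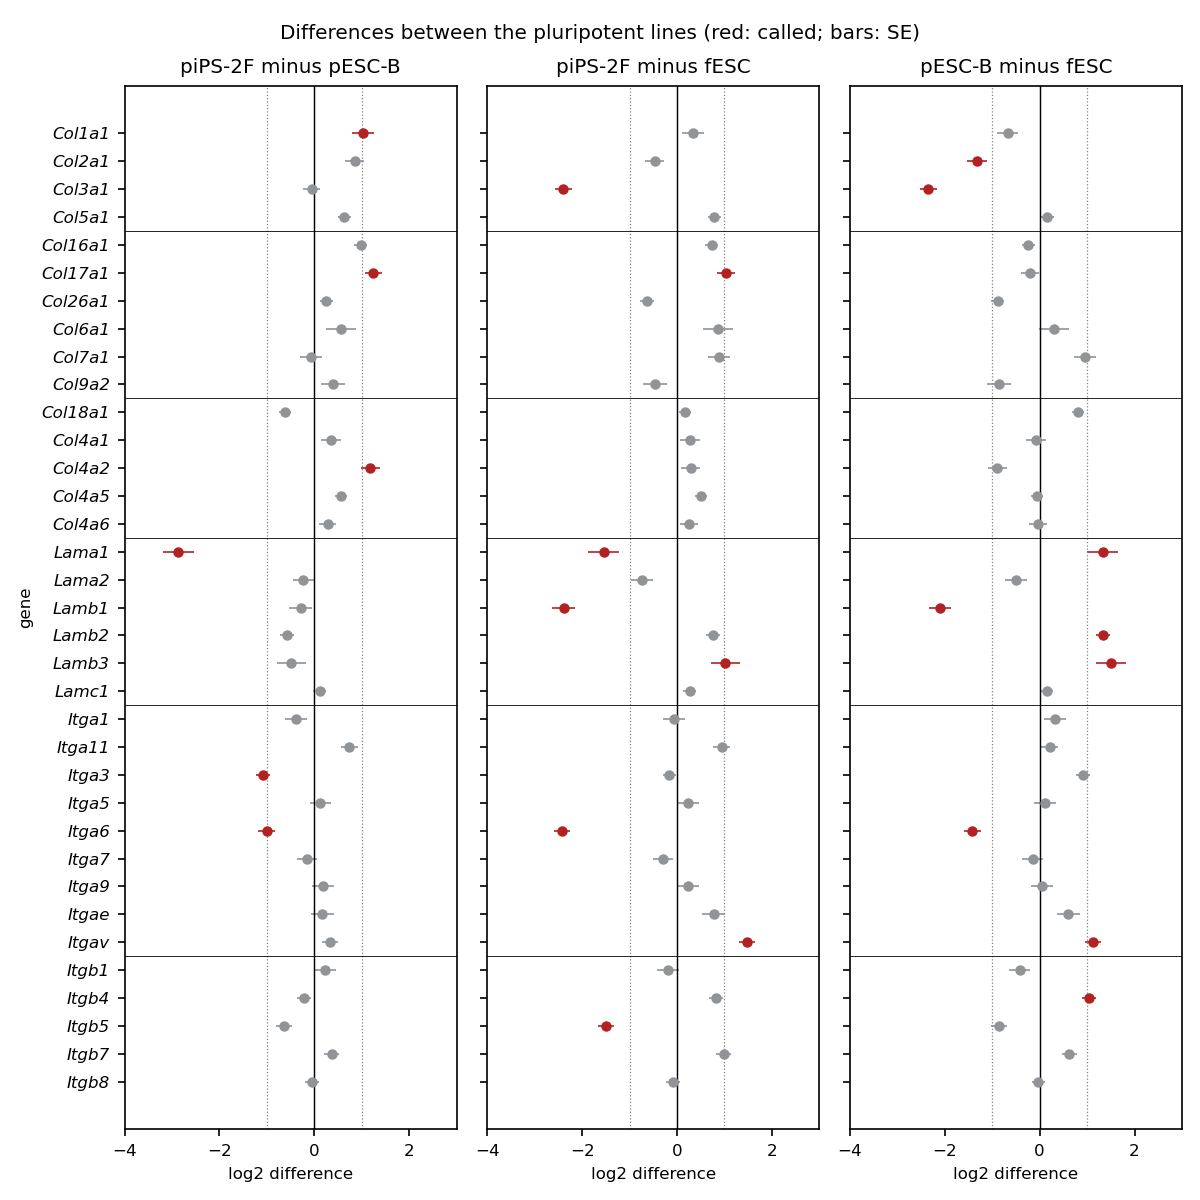
Log2 differences of the 35 tested genes in piPS-2F minus pESC-B, piPS-2F minus fESC and pESC-B minus fESC (panels), with bars for the standard error, called genes in red and dotted lines at 2-fold. Most genes lie between the dotted lines; Lama1 and Itga6 are red in all 3 panels and Col3a1 and Lamb1 in the 2 panels with fESC.

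Between the neural lines, pNSC had 5 members higher than fNSC (14.3%), beside 5.11% of all genes, and 6 lower (17.1%), beside 6.24%. Higher in pNSC were Col26a1, at least 13.9-fold (adjusted p = 4.8e-08), Lama1, at least 1.84-fold (adjusted p = 0.0043), Itga7 by 1.77 ± 0.21 (adjusted p = 0.00017) and Itgav by 1.11 ± 0.17 (adjusted p = 0.00077). Col9a2 was at least 1.25-fold higher (adjusted p = 0.013), a call lost without pNSC replicate 2 (0.64, adjusted p = 0.11) or fNSC replicate 1 (0.95, adjusted p = 0.085). Col6a1 was at least 7.35-fold lower in pNSC (adjusted p = 1.3e-05). The other lower genes had log2 differences of -2.06 ± 0.14 for Col5a1 (adjusted p = 4.1e-06), -1.51 ± 0.23 for Itga9 (adjusted p = 0.00084), -1.24 ± 0.18 for Itga6 (adjusted p = 0.00049) and -1.12 ± 0.24 for Lamb1 (adjusted p = 0.0056). The Lamb1 call was lost without fNSC replicate 1 (-0.99, adjusted p = 0.054). Col18a1 had a difference of -1.51 ± 0.13 on its tested probe (adjusted p = 1.5e-05), but its other 2 probes gave -0.23 and -0.04.

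Genes that work with the members are given from 3 lists. Of 11 tested basement membrane partners, 4 were higher (36.4%) and 3 lower (27.3%) in piPS-2F against pNSC, beside 27.0 and 26.4% of all genes, led by Nid2 (4.80 ± 0.14), a nidogen that links laminin to type IV collagen, Smoc1 (-3.21 ± 0.14) and Hspg2 (2.84 ± 0.14), the proteoglycan perlecan. In fESC against fNSC 5 were higher (45.5%) and 4 lower (36.4%), beside 23.9 and 24.8%, led by Fbln2 (3.48 ± 0.20), Nid2 (2.77 ± 0.14) and Nid1 (2.60 ± 0.28). Of 16 tested genes for collagen processing and crosslinking, 6 were higher (37.5%) and 4 lower (25%) in the parthenogenetic pair, and 6 were higher (37.5%) and 5 lower (31.2%) in the female pair. Lox, which crosslinks collagen and elastin, stood at least 21.1-fold above pNSC in piPS-2F and at least 7.78-fold above fNSC in fESC, and piPS-2F exceeded pESC-B by 1.72 ± 0.21 on the log2 scale. Bmp1, which trims fibrillar procollagens, ran the other way, at -4.26 ± 0.16 and -4.33 ± 0.16. Serpinh1, the collagen chaperone, fell by 3.23 ± 0.34 in piPS-2F against pNSC, and Loxl1 was at least 5.91-fold higher in fESC than in fNSC but differed by 0.25 ± 0.16 in piPS-2F against pNSC (adjusted p = 0.19), where the arrays overlapped.

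Of 15 tested integrin adaptors, 5 were higher (33.3%) and 5 lower (33.3%) in piPS-2F against pNSC and 3 were higher (20%) and 6 lower (40%) in fESC against fNSC. The shares over all genes were 27.0 and 26.4% in the first comparison and 23.9 and 24.8% in the second, and on lists this short such shares are read as a description. Actn1 and Actn4, alpha-actinins that tie integrins to actin, were higher by 3.74 ± 0.16 and 2.90 ± 0.19 in piPS-2F and by 3.52 ± 0.16 and 2.29 ± 0.19 in fESC. Fermt1, the epithelial kindlin that activates integrins, stood at least 4.02-fold above pNSC in piPS-2F and at least 6.14-fold above fESC in pESC-B. Parva, a parvin, fell by 2.40 ± 0.13 in fESC against fNSC.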

How the data were processed

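RNA from 5 groups of 2 arrays was labelled with biotin and hybridised, per the labels. The authors deposited bead intensities with a detection p-value for each probe, and log2 values (1.30 to 15.26) made, per the submitters' processing notes, with BeadStudio 3.2, RMA and lumi in an order not given in the sources used here. These ranked probes as the intensities did and were used as an alternative. The deposited intensities (22.9 to 28.3% of them below 0) were background-corrected by the detection p-values, offset by 16, quantile-normalised and log2-transformed (neqc, limma 3.58.1, R 4.3.3). The steps were tested on simulated data.

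Of 25697 probes, 23978 had 1 symbol in GEO's platform annotation and 1719 none. All 108 member probes matched RefSeq by Entrez ID. The 13564 probes kept had a detection p-value under 0.01 on both arrays in 1 or more groups, and the brightest kept probe stood for its gene, which left 9220 genes. One linear model of the 10 arrays held a mean for each group, with 5 residual degrees of freedom. Every called member is named. The members and gene lists were chosen with earlier results of these data known.

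Equal replicate numbers did not pair arrays across groups: of 10 pairs of groups, 0 had deviations correlated over 0.1 (-0.122 to 0.0875). Duplicates correlated at 0.990 to 0.996. The number of arrays limits the precision. The alternatives were an offset of 50, no background correction, median scaling, the authors' values, 2 other detection filters, the mean of a gene's probes, only the arrays compared, a replicate block and each array left out. Labels disagree in places: the fESC titles carry an extra B, and 1 characteristic of piPS-2F replicate 2 names Klf5 in place of Klf4.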

Additional observations from a re-analysis of the deposited data

Results flagged for a closer look

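The difference between pluripotent and neural cells was called unequal in the parthenogenetic and the female pair for 20 of the 35 tested genes. With 1 line per kind, this cannot be told apart from differences between single lines. It was tested directly, as piPS-2F minus pNSC, less fESC minus fNSC, on the log2 scale. The values were 4.72 for Col6a1, 2.85 for Col5a1, 1.74 for Itga9, 1.68 for Col18a1, 1.66 for Lamb3, 1.37 for Col16a1, 1.25 for Col7a1, 1.18 for Col17a1, 1.09 for Itgb7, 1.04 for Itgb4 and 1.01 for Itgae. They were -4.61 for Col26a1, -3.14 for Lama1, -2.62 for Col3a1, -2.33 for Itgb5, -2.07 for Itga7, -1.49 for Col9a2, -1.26 for Lamb1, -1.19 for Itga6 and -1.10 for Lama2.

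Col6a1 and Col26a1 were called in opposite directions in the pairs. Col5a1, Itgb5, Lamb1, Itga6, Itgb8, Itgae, Col7a1 and Col17a1 were called in the parthenogenetic pair alone, and Col3a1, Lama1, Lamb2, Itga1 and Itga9 in the female pair alone. Of these, the difference between pairs was not called for Itgb8 (-0.62, adjusted p = 0.032), Lamb2 (0.88, adjusted p = 0.0076) and Itga1 (0.76, adjusted p = 0.093).

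Leaving out 1 array ended several of these calls. Itgae was lost without either array of piPS-2F or fNSC, without fESC replicate 1 or without pNSC replicate 1 (0.63 to 1.13, adjusted p = 0.054 to 0.12), and Lama2 without any of piPS-2F replicate 1, fESC replicate 2, pNSC replicate 1 or fNSC replicate 1 (-1.03 to -0.73, adjusted p = 0.035 to 0.06). Lost without piPS-2F replicate 2 were Col17a1 (0.93) and Itgb7 (0.91), and Itgb7 also without fESC replicate 1 (0.97). Itgb4 was lost without piPS-2F replicate 1 (0.85), Col7a1 without fNSC replicate 2 (0.84), and Lamb1 without fESC replicate 2 (-0.95) or fNSC replicate 2 (-1.13, adjusted p = 0.054). With the mean of a gene's probes, Col18a1 (0.45, adjusted p = 0.055) and Itgb4 (0.42, adjusted p = 0.054) were no longer called.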

How the results depend on the processing

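No called difference changed sign under any alternative tried. The counts of called members moved by more than 1.5 times in 5 cases: in piPS-2F against pESC-B, 6 became 1 with an offset of 50 and 2 with median scaling; in piPS-2F against fESC, 8 became 13 with the authors' values; in pNSC against fNSC, 11 became 7 with an offset of 50; and the 20 genes whose change differed between the pairs became 10 with that offset. An offset of 50 shrinks the differences of dim genes, and it ended 34 of the 103 calls; median scaling ended 17. Genes called under every alternative numbered 21 of 26 in piPS-2F against pNSC, 18 of 23 in fESC against fNSC, 1 of 6 (Lama1) in piPS-2F against pESC-B, 5 of 8 in piPS-2F against fESC, 6 of 9 in pESC-B against fESC, 6 of 11 in pNSC against fNSC, and 8 of 20 for the difference between the pairs. In piPS-2F against fESC, 3 higher and 5 lower became 1 and 5 with either the offset of 50 or median scaling; in pESC-B against fESC, 5 and 4 became 2 and 4 with the offset and 3 and 6 with median scaling; and for the difference between the pairs, 11 and 9 became 6 and 8 with median scaling. Median scaling shifted the median of all genes by -0.48 in piPS-2F against pNSC, -0.22 in fESC against fNSC, -0.14 in piPS-2F against fESC and -0.28 for the difference between the pairs. Leaving out each array in turn gave 26 to 28, 22 to 23, 5 to 7, 7 to 11, 8 to 11 and 10 to 11 called members in the 6 comparisons in the order above, and 17 to 21 for the difference between the pairs. With 1 array left, a group was assumed to vary like the others. The replicate block gave the counts 26, 23, 6, 8, 9, 11 and 20, the same as without it. For genes under the detection limit in a group only a bound on the change is known.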
